A study of Mus musculus with 2 samples.

Results

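The genes described here are 9 classical targets of STAT5, the transcription factor that the interleukin-3 (IL-3) receptor activates. They comprise Cish, Socs1, Socs2 and Socs3, the kinase genes Pim1, Pim2 and Pim3, the cytokine gene Osm and Id1. They were chosen by name, and each was read from a probe set annotated with that gene alone, taking the probe set with the highest mean of both arrays where a gene had several. All 9 were measured, among 19935 genes in all. Background knowledge of the pathway is as follows. IL-3 binding brings together the IL-3 receptor alpha chain and the common beta chain, JAK2 phosphorylates STAT5, and STAT5 pairs enter the nucleus and bind DNA. BCR-ABL is known to activate STAT5 without a cytokine, and imatinib inhibits the ABL kinase but not JAK2. CIS and the SOCS proteins feed back on the receptor and the JAK kinases, the PIM kinases promote survival and growth and need no activating phosphorylation, so that their amount sets their activity, and OSM is a cytokine of the IL-6 family whose mouse gene is known to be induced by several cytokines through STAT5.

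The cells were Baf3 cells, a mouse pro-B-like line that depends on IL-3, made to express BCR-ABL constitutively. One culture was grown with IL-3 and the other without it. Both carried BCR-ABL, both grew in RPMI medium with 10% FBS, and the treatment protocol gives both 5 µM imatinib (printed as μm in the protocol) for 6 h. Each condition had 1 array, so no replicate error, test or p-value between conditions could be had, and every value compares these 2 arrays. The submitters call cells with IL-3 resistant to imatinib and cells without it sensitive. The labels do not say whether the line was 1 clone or how BCR-ABL was introduced. Both sample titles begin with Live, and the titles do not say whether only living cells were taken.

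The labels leave some doubt. The title and source name of the first sample give IL-3, but its description says without IL-3, in the same words as the description of the second. The source name of the second can also be read as lacking imatinib. The titles were followed; if the 2 labels were swapped, every sign below would turn. The values are log values, taken as log2 because no base is given, set against a baseline that differs by probe set. They therefore show how a gene differed between the arrays, not how abundant its RNA was, and whether a gene or a cell type marker was absent could not be read from them. Over 28815 probe sets the median value was -0.03 on the array with IL-3 and -0.05 on the other.

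To place the genes in the genome, the sequence just before the annotated transcript start was taken from RefSeq (build GRCm38.p6), which held 300-base windows for 6 of the 9 genes, namely Cish, Socs1, Socs3, Pim1, Pim2 and Pim3. STAT5 recognises the letters TTCNNNGAA, a palindrome that reads the same on both strands. Cish and Socs3 are shown because their windows held these letters, and Pim1 and Pim2 because they had the largest positive differences among the 9 genes. The capitals mark TTCNNNGAA. The Cish stretch, chr9:107296559-107296678 on the plus strand, runs from 100 bases before the start to base 20 of the transcript. The Socs3 stretch, chr11:117969367-117969546 on the minus strand, covers the 180 bases before the start used. This stretch lies inside the annotated span of the gene, chr11:117966079-117970336, and so is not upstream of the whole gene. The Pim1 stretch, chr17:29490665-29490784 on the plus strand, and the Pim2 stretch, chrX:7878186-7878305 on the plus strand, each cover 120 bases before the start.
Cish: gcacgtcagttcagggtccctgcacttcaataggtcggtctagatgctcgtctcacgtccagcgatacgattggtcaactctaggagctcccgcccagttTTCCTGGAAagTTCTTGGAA
Socs3: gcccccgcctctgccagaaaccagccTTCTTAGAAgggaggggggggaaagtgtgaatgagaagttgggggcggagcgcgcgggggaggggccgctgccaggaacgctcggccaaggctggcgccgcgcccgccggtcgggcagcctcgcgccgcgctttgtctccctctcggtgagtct
Pim1: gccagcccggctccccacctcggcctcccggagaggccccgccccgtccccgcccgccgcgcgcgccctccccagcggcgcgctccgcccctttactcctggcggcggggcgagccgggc
Pim2: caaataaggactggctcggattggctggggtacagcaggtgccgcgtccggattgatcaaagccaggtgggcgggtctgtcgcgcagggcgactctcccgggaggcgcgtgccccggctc

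The Cish window held 2 matches, TTCCTGGAA at bases 1 to 9 and TTCTTGGAA at bases 12 to 20 of the transcript. The Socs3 window held 1 match, TTCTTAGAA, starting at base -154 from the start used, which lies inside the annotated span of the gene. The windows of Socs1, Pim2 and Pim3 and both windows of Pim1, which has 2 annotated starts, held 0 matches; this says only that these letters are not in these 300 bases. Of 32851 such windows in the mouse table, 8.30% held at least 1 match and 0.457% held 2 or more. A match is a stretch of letters and not a measured binding site. Over all 1403 measured genes with a match in a window the median difference between the arrays was 0.03, against 0.04 over the 15612 measured genes that had a window.

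Among the 9 genes, the PIM kinase genes Pim2 and Pim1 were higher with IL-3 by 1.80-fold and 1.68-fold, Osm was lower by 2.31-fold, and the remaining 6 differed by less than 1.5-fold. In all, 7 of the 9 had a difference above 0, where 59.8% of all genes did; with the other probe set of Socs3 it was 6 of 9. The median of the 9 was 0.21, against 0.04 over all genes, both as log2 differences with IL-3 minus without IL-3. That median was smaller under other choices, at 0.11 after quantile normalization, 0.09 with the mean of a gene's probe sets or its lowest one, and 0.054 with a loess trend subtracted (all genes 0.004). At least 2-fold higher were 0 of the 9 genes (0.441% of all genes, 88 in number) and at least 2-fold lower was 1 of 9, Osm (0.657%, 131 in number). At 1.5-fold, a threshold added after the values were seen, 2 of the 9 were higher, with 3.52% of all genes, and 1 was lower, with 2.71%. Among all genes the higher ones made up 40.2% of those past 2-fold. That share was 27.8% after quantile normalization, 12.4% after a loess trend was subtracted and 52.8% if the values are natural logs. With the labels swapped these shares would be 59.8%, 72.2%, 87.6% and 47.2%.

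**Figure D1:**
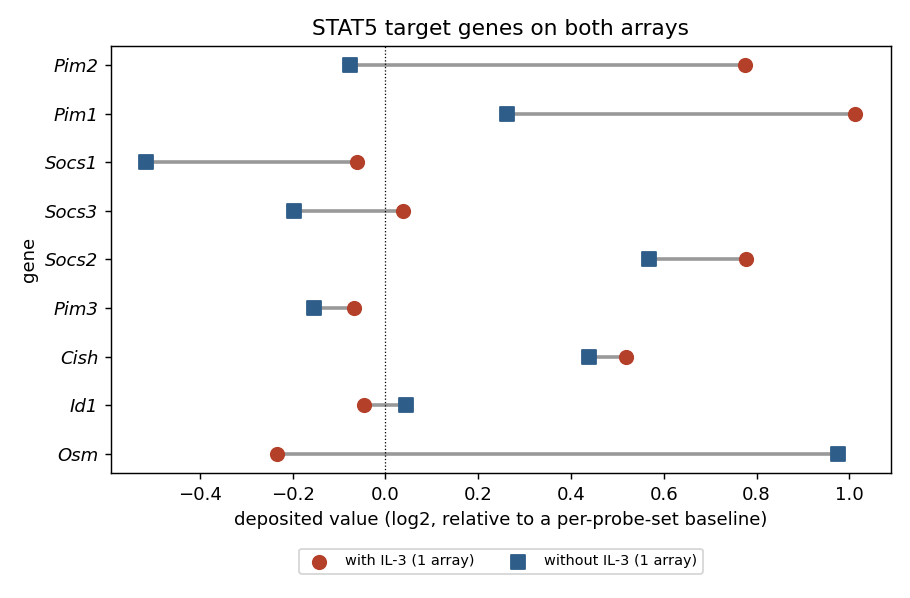
Deposited value (log2, relative to the probe set's baseline; x axis) of the 9 genes (y axis) on the array with IL-3 (circles) and the array without IL-3 (squares), ordered by the difference. Pim2 and Pim1 have the widest gaps with the IL-3 value to the right, Osm has the widest gap of all with the IL-3 value to the left, and there are no error bars because each group has 1 array.

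The PIM genes encode serine/threonine kinases, and Pim1 and Pim2 were first found as integration sites of Moloney leukaemia virus. Pim2 had a value of 0.77 with IL-3, against -0.08 without IL-3, a log2 difference of 0.85. The array with IL-3 lay above the probe set's baseline and the other array close to it. Pim2 ranked 193 of 19935 genes from the highest difference, so that 0.968% of genes were at least as far on that side.

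Pim1 had a value of 1.01 with IL-3, against 0.26 without IL-3, a log2 difference of 0.75. Both arrays were above the baseline, and the one with IL-3 was the higher. Pim1 ranked 329 from the highest, with 1.65% of genes at least as far. Differences were more scattered among genes with a high mean value, and both PIM genes belonged to the 25% of genes with the highest mean, where the robust spread (scaled median absolute deviation) was 0.42, against 0.17 over all genes. Within that 25%, 3.73% of genes were at least as far on that side as Pim2 and 6.24% as far as Pim1. The mean holds the array on which a gene is high, so that a gene's place in that 25% depends partly on its difference.

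Pim3, the third kinase of the family, did not share the size of these differences. Its value was -0.07 with IL-3, against -0.15 without IL-3, a log2 difference of 0.09, and 37.9% of all genes were at least as far on that side. Both arrays lay just below the baseline. The yardstick for such small differences is the spread between probe sets of the same gene, whose pooled SD was 0.14 over 998 genes with several probe sets. It covers measurement within these arrays only and is no replicate error. The difference of Pim3 was below it, and those of Pim1 and Pim2 were above it.

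**Figure D2:**
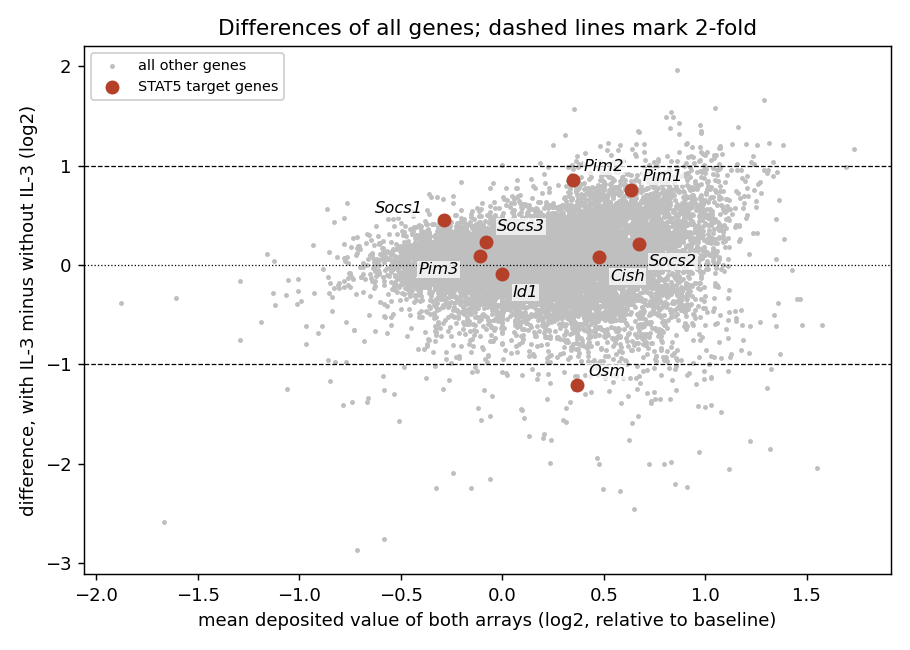
Difference with IL-3 minus without IL-3 (log2, y axis) against the mean deposited value of both arrays (log2, relative to baseline, x axis), with 1 point per gene; grey points are all other genes, red points the 9 STAT5 targets, and dashed lines mark 2-fold. Pim2 and Pim1 lie in the upper part of the cloud and inside the 2-fold line, and Osm lies below the lower line.

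The feedback genes had smaller differences than Pim1 and Pim2. SOCS1 binds and inhibits JAK kinases directly through its kinase inhibitory region. Socs1 had a value of -0.06 with IL-3, against -0.51 without IL-3, a difference of 0.45 or 1.37-fold. Both arrays were below the baseline, and the array without IL-3 was the lower. Socs1 ranked 1206 from the highest over all genes. In all, 6.05% of genes were at least as far on that side. Socs1 belonged to the 25% of genes with the lowest mean, where the robust spread was 0.14. Within that 25%, 0.582% of genes were at least as far, a smaller share than for Pim1 or Pim2 in theirs. That place again depends partly on the gene's own values.

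CIS, the founding member of the family, competes with STAT5 for phosphorylated receptor sites, and its gene is widely used as a readout of STAT5 activity. Cish had a value of 0.52 with IL-3, against 0.44 without IL-3, a difference of 0.08. Both arrays lay above the baseline and close to each other, by less than the spread between probe sets. In 39.8% of all genes the difference was at least as high. With a loess trend subtracted, the difference of Cish was -0.003, so that its sign depended on the scaling.

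SOCS2, known as a negative regulator of growth hormone signalling, was measured by 2 probe sets. The one used gave Socs2 a value of 0.78 with IL-3, against 0.57 without IL-3, a difference of 0.21. The other gave 0.39 with IL-3, against 0.13 without IL-3, a difference of 0.26. Both had the array with IL-3 higher, both were annotated with RefSeq transcripts of Socs2, and they differed from each other by 0.05. The gene lies on chromosome 10, whereas of the 20 single-gene probe sets nearest to the used one by identifier, 17 name genes of chromosome 12; for the other probe set, 19 of 20 name genes of chromosome 10. With the loess trend subtracted the difference of Socs2 was 0.04.

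SOCS3 inhibits JAK2 while bound to receptors of the IL-6 family and others. Its gene also had 2 probe sets, and they pointed in opposite directions. The one the rule picked gave Socs3 a value of 0.04 with IL-3, against -0.20 without IL-3, a difference of 0.24. The other gave -0.20 with IL-3, against 0.02 without IL-3, a difference of -0.22. No direction can thus be given for Socs3: the mean of both was 0.01, and the gap between them, 0.45, was larger than the pooled SD of 0.14. The annotation credits the used probe set to 1 sequence record and 0 RefSeq transcripts, and the other to a RefSeq transcript among 3 records. Socs3 lies on the minus strand of chromosome 11. Among the nearest probe sets by identifier whose gene has a known strand, all 14 around the used one name plus-strand genes and all 14 around the other name minus-strand genes.

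Osm had the largest difference of the 9 genes. OSM is secreted by myeloid and lymphoid cells and signals through receptors that contain gp130. Its value was -0.23 with IL-3, against 0.98 without IL-3, a log2 difference of -1.21. The array with IL-3 lay below the baseline and the one without IL-3 well above it. Osm ranked 73 from the lowest of 19935 genes, so that 0.366% were at least as far on that side. Its difference was opposite in sign to those of Pim1 and Pim2. It stayed past 2-fold, at -1.31 after quantile normalization and -1.25 with a loess trend subtracted. The other choices could hardly have changed this. Osm had 1 probe set, so the choices of probe set returned the same -1.21. The filter kept Osm and changes no value of a gene that it keeps. Natural logs could only enlarge the difference, to -1.75, and median centring shifted all genes alike, with Osm at -1.22.

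Id1 encodes an inhibitor of basic helix-loop-helix factors. It lacks a DNA-binding region and holds E proteins away from DNA. Its value was -0.05 with IL-3, against 0.05 without IL-3, a difference of -0.09, smaller than the spread between probe sets. Both had the same size and opposite signs within 1e-05, a relation seen in 6.11% of probe sets, which occurs where the baseline is the midpoint of these 2 arrays.

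**Figure D3:**
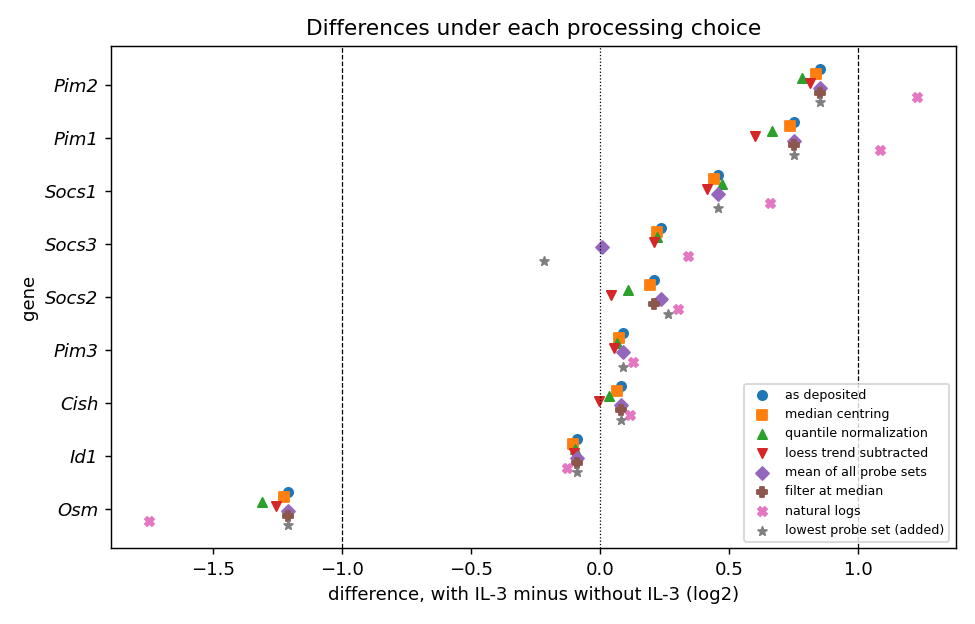
Difference with IL-3 minus without IL-3 (log2, x axis) of the 9 genes (y axis) as deposited and under 7 other processing choices, each with its own marker; dashed lines mark 2-fold. Osm stays below the lower line throughout, Pim1 and Pim2 pass the upper line only if the values are natural logs, and Socs3 changes side with the probe set.

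The other genes of the pathway were read from lists chosen by name. Among 11 of 12 further genes known as STAT5 targets, 7 were above 0, where 59.8% of all genes were. In this list 0 were at least 2-fold different, where 0.441% of all genes were higher and 0.657% lower. The median was 0.10, against 0.04 over all genes. The highest were Tfrc, the transferrin receptor gene, at 0.61, the cyclin gene Ccnd2 at 0.51 and Myc at 0.39. Tfrc alone of this list passed 1.5-fold, on the higher side, where 3.52% of all genes were. Its value was 1.06 with IL-3, against 0.44 without IL-3. The lowest were Il2ra, the IL-2 receptor alpha chain gene, at -0.32, the survival gene Mcl1 at -0.32 and Bcl2 at -0.23. Members of this list thus lay on both sides of 0, as did the 9 genes.

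The receptor, kinase and STAT genes of the pathway, with phosphatase, PIAS and other regulator genes, lay mostly below 0. Of 24 such genes 22 were measured, 8 were above 0 and 14 below, where 59.8% of all genes were above 0. The median was -0.09, and 0 passed 1.5-fold in either direction. Among all genes, 3.52% were at least 1.5-fold higher and 2.71% at least 1.5-fold lower. Stat5a had a value of 0.07 with IL-3, against 0.05 without IL-3, and Stat5b a value of 0.04 with IL-3, against 0.29 without IL-3; both were named after their values were seen, because they encode the factor itself. The highest of the list was Ptpn6, which encodes the phosphatase SHP-1, at 0.38, followed by Ptpn11 and Stat4, both at 0.15. The lowest were Il3ra, the IL-3 receptor alpha chain gene, at -0.43, Pias1 at -0.40 and Stat2 at -0.31.

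Of the SOCS genes outside the cytokine-induced group, 0 of 4 passed 1.5-fold, and 3 were above 0. At 1.5-fold, 3.52% of all genes were higher and 2.71% lower. Socs4 differed by -0.18, Socs5 by 0.17, Socs6 by 0.23 and Socs7 by 0.02. The SOCS box, the shared end of these proteins, recruits a ubiquitin ligase of elongins, a cullin and a RING protein. All 6 genes on a list of elongin, cullin and RING protein genes were above 0, as were 59.8% of all genes. Their median was 0.24 and 0 were past 2-fold, where 0.441% of all genes were higher and 0.657% lower. With the loess trend subtracted 4 of 6 were above 0 and the median was 0.08. Which cullin and RING protein the SOCS proteins use in these cells was not measured. Elob, the elongin B gene, had a value of 0.92 with IL-3, against 0.26 without IL-3, which was 1.59-fold higher. Rbx1 differed by 0.49, Cul2 by 0.28, Rnf7 by 0.21, Cul5 by 0.17 and Eloc by 0.14.

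Genes that encode known substrates of the PIM kinases went both ways. Of the 10 listed, 9 were measured and 5 of these were above 0, where 59.8% of all genes were. The median was 0.02. The phosphatase genes Cdc25a and Cdc25c, which drive the cell cycle, had folds of 1.63 and 1.53 on the higher side, followed by Eif4ebp1 at 0.29. Cdkn1b, which encodes the cell cycle inhibitor p27, was 1.54-fold lower, with a value of 0.38 with IL-3, against 1.00 without IL-3. Over all genes, 3.52% were at least 1.5-fold higher and 2.71% at least 1.5-fold lower. Bad, a pro-apoptotic gene whose protein PIM kinases inactivate, differed by -0.37 and Foxo3 by -0.08. These are RNA differences and say nothing of phosphorylation.

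Among cytokines related to OSM, Il6 was the other gene past 2-fold. Its value was 0.02 with IL-3, against 1.17 without IL-3, which was 2.21-fold lower. Lif differed by 0.35, Ctf1 by 0.26, Clcf1 by 0.06 and Il11 by -0.06. The receptor genes of this cytokine family differed by 0.14 for Il6st, which encodes gp130, 0.12 for Lifr, 0.11 for Il6ra and -0.04 for Osmr. Only Osm and Il6 among these 10 genes were thus past 2-fold, and both were lower with IL-3. Past 2-fold on the lower side were 0.657% of all genes, and on the higher side 0.441%. Osm had already been counted among the STAT5 targets, and the rest of these genes lay between -0.06 and 0.35.

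**Figure D4:**
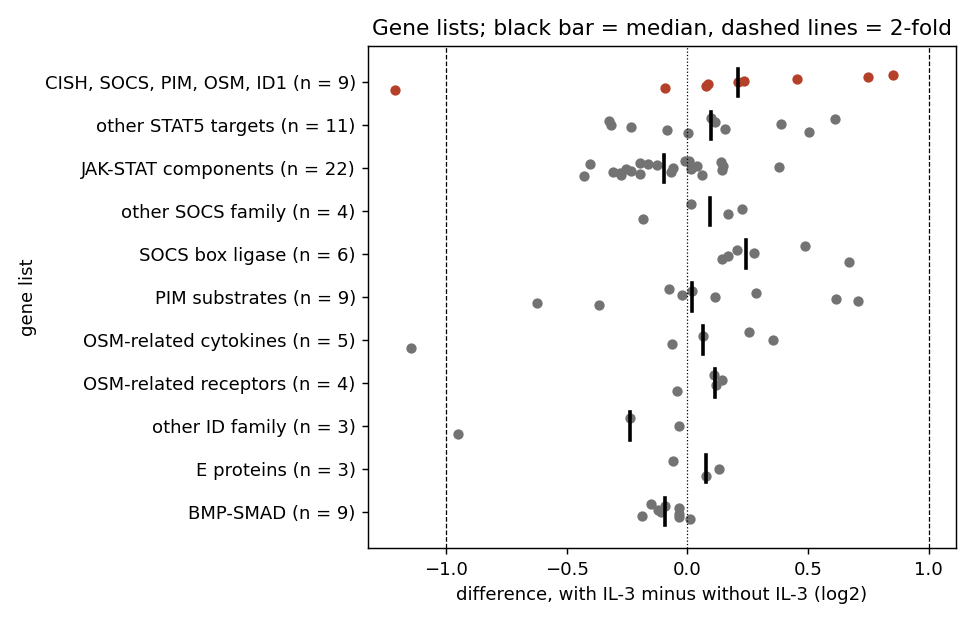
Difference with IL-3 minus without IL-3 (log2, x axis) of each measured gene in the 9 STAT5 targets (red) and the comparison lists (grey; y axis, with the number of genes); black bars are medians and dashed lines mark 2-fold. Past the lower line are Osm and Il6, no listed gene is past the upper line, and the receptor and JAK-STAT genes lie between -0.43 and 0.38.

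Other cell type markers were read for the arrays as a whole. Of 8 mast cell and basophil markers, 3 were past 2-fold on the lower side (Fcer1a, Cpa3 and Cma1), where 0.657% of all genes were, and 3 were above 0, namely Tpsb2 at 0.19, Kit at 0.18 and Hdc at 0.003. The remaining ones were Ms4a2 at -0.92 and Mcpt8 at -0.09, and the list median of the deposited values was -0.20 with IL-3, against 0.27 without IL-3. Of 7 granulocyte markers, Ngp and Itgam were at least 2-fold lower, S100a9 at 0.38, Mpo at 0.17 and S100a8 at 0.16 were above 0, Ltf and Elane were at -0.002 and -0.07, and the list's median difference was -0.002. In the B-lineage, macrophage, T cell, erythroid and fibroblast lists 0 genes passed 2-fold, and their median differences lay between -0.11 and 0.08. Adgre1 of the macrophage list, at -0.79, and Cd3g of the T cell list, at -0.80, were at least 1.5-fold lower, as were 2.71% of all genes. If the values are natural logs, both were past 2-fold. Of the 5 macrophage markers 1 was above 0, and of the 5 T cell markers 4 were. Osm was lower on the same array as Fcer1a and Cpa3; the part of these markers in its difference was not tested. In bulk RNA, fewer cells of a type and less RNA per cell cannot be told apart.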

How the data were processed

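RNA from 2 Baf3 cultures was isolated with a miRNeasy kit and hybridised as biotin-labelled sense-strand cDNA to Gene 1.0 ST arrays, per the labels' protocols. The authors deposited 1 value per probe set and array, taken here as log2; the log scale and the per-probe-set baseline are inferred from the deposited values, and the summarisation, normalization, log base and direction are not given in those sources. The difference with IL-3 minus without IL-3 cancels the baseline. Of 28815 probe sets, 21780 named 1 gene in the platform annotation, 1605 several and 5430 none; the last 2 kinds were not named. With 1 array per group nothing was tested; the low number of arrays limits precision. Counts used a fixed 2-fold rule; the calculation was tested on simulated data. The alternatives were median centring, quantile normalization, loess (lowess fraction 0.3), the mean of a gene's probe sets, a filter at the median and natural logs, with a gene's lowest probe set and 1.5-fold added after seeing the data. The 9 genes and all lists were chosen with earlier results of these data known. From each list of pathway genes the 3 highest and 3 lowest, or all of up to 6, were named. Marker genes past 2-fold were named with the other members of their lists, and in the remaining marker lists those past 1.5-fold. Sequences are from RefSeq (GRCm38.p6). Python 3.11.15, pandas 2.3.3 and statsmodels 0.14.6 were used.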

Additional observations from a re-analysis of the deposited data

How the results depend on the processing

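With 1 array per group no replicate could be left out. No paired analysis was possible because the labels give 1 sample per group. Osm stayed at least 2-fold lower, and Pim1, Pim2, Pim3, Socs1 and Socs2 stayed above 0 and Id1 below 0, under every choice that kept them; Socs1, Socs3 and Pim3 fell out under the filter at the median. Cish (-0.003 with the loess trend subtracted) and Socs3 (-0.22 with its lowest probe set) changed sign. Only Socs2 and Socs3 had 2 probe sets, so the choices of probe set could not move the other genes. The filter and natural logs could not turn a sign either. Under the filter, 6 of the 9 genes were kept and 4 were above 0, with 5724 (57.4%) of the 9968 genes kept above 0. The median of the 9 genes was 0.054 with the loess trend subtracted. If the values are natural logs, 2 of the 9 genes, Pim1 and Pim2, were at least 2-fold higher, as 2 were at 1.5-fold. Over all genes the higher and lower counts were 29 and 205 with the loess trend subtracted, 419 and 375 as natural logs, and 701 and 540 at 1.5-fold. A lower threshold and a larger unit raise counts by construction; the cause of the other shifts was not tested.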

Other observations

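Osm and Lif are neighbours on mouse chromosome 11, with 0 protein-coding genes between them in the RefSeq table, and both encode cytokines that signal through gp130. They differed in opposite directions between the arrays, by -1.21 for Osm and 0.35 for Lif; the pair was singled out after its values were seen.

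In the family of Id1, Id2 had the largest difference. Its value was 0.28 with IL-3, against 1.23 without IL-3, which was 1.93-fold lower, just short of 2-fold; it was past 2-fold after quantile normalization and with the loess trend subtracted. Id3 differed by -0.04 and Id4 by -0.24, so that all 3 were on the same side as Id1. The E protein genes, whose products ID proteins bind, differed by 0.08 for Tcf3, 0.13 for Tcf4 and -0.06 for Tcf12. Bone morphogenetic protein signalling through SMAD factors is a further known inducer of Id1. Of the 9 receptor and SMAD genes of that pathway 8 were below 0, where 59.8% of all genes were above 0. Their median was -0.09 and their range -0.19 to 0.01. Any part of that pathway in the difference of Id1 was not tested. The highest were Bmpr1a at 0.01, Bmpr1b at -0.03 and Smad6 at -0.03, and the lowest Bmpr2 at -0.19, Smad9 at -0.15 and Smad5 at -0.12. The size of each was near or below the spread between probe sets of a gene.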
